A study of Oryctolagus cuniculus with 20 samples.

Results

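Cartilage of the mandibular condyle, the rabbit's jaw joint, was compared between joints 2 weeks after internal derangement (4 arrays) and untreated rabbits (4 arrays). These 8 arrays were chosen by their titles from a series of 20, whose other 12 came from joints 1, 4 and 8 weeks after derangement. All rabbits were male and 6 months old per the labels, which give no strain, and derangement was made in left joints only. RNA of each sample was labelled with Cy3 and hybridised alone to a one-colour Agilent array. The labels name no sham group and give the control no time, so derangement, the procedure itself and the passing of time cannot be told apart. The design text counts 4 rabbits in each group, and arrays were treated as separate animals. The labels do not say this of each array, and p-values measure only the spread between these samples. Control and 2-week arrays were scanned on the same day, which holds for no other comparison with control, but each group lay on a slide of its own, so that slide and group cannot be told apart.

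Internal derangement is a displacement of the disc that normally lies between the jaw's condyle and the skull base. The condyle is capped by a layered cartilage in which a fibrous surface covers chondrocytes that make collagen II and aggrecan and, deeper down, enlarge and give way to bone. The lateral pterygoid, a skeletal muscle, inserts at the neck of the condyle and at the joint capsule and disc. Contraction in such muscle is driven by myosin heavy chains that pull on actin filaments, with troponin as the calcium switch, titin and nebulin as molecular rulers, and a calcium pump that empties the cytoplasm after each contraction.

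All 8 arrays were of similar quality. Between 52.81% and 58.94% of spots per array were well above background, their 75th percentiles lay between 302.9 and 485.9 arbitrary units of signal, and 0 spots were saturated. Levels are given as log2 of the signal relative to that percentile, so 0 is the percentile itself. The median correlation across probes, which are not independent replicates, was 0.976 between 2-week arrays, 0.975 between control arrays and 0.966 between the groups. As a check of the tissue label, COL2A1, the fibrillar collagen of cartilage, stood at 8.54, 8.56, 9.30 and 9.52 on the control arrays and at 8.69, 8.92, 8.97 and 7.58 on the 2-week arrays, far above the 75th percentile on each of them. The other 2 measured genes of hyaline cartilage were lower, with CNMD above the percentile on all 8 arrays and ACAN below it. Skeletal muscle transcripts were also present, most of all in control replicates 1 and 2, whose values follow with the muscle genes.

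Probes well above background on 3 or 4 arrays of control, of 2 weeks or of both were kept, 24291 of 43603. A probe is said to be called where its difference in limma had a Benjamini-Hochberg adjusted p under 0.05 over all kept probes. By that rule 97 probes (0.399%) were called, 46 higher (0.189%) and 51 lower (0.21%) at 2 weeks, and 1858 had an unadjusted p under 0.05. Called falls reached 7.43 on the log2 scale, and 31 of the called probes belonged to genes of muscle filaments or of muscle calcium handling, each of them lower. These 31 are not independent, since several read the same gene, 9 of them ATP2A1. By the brightest kept probe of each gene, 7 filament genes and 1 calcium handling gene were called. On the higher side, 42 of the 46 called probes have no gene name here, and on the lower side 17 of the 51. Of all 24291 kept probes only 1843 have a name, so the lack of names is no trait of the rises. Of the 51 called lower, 35 were not well above background on any 2-week array, so that their fitted changes have no measured lower end, and 14 of the 46 called higher were not well above background on any control array.

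**Figure D1:**
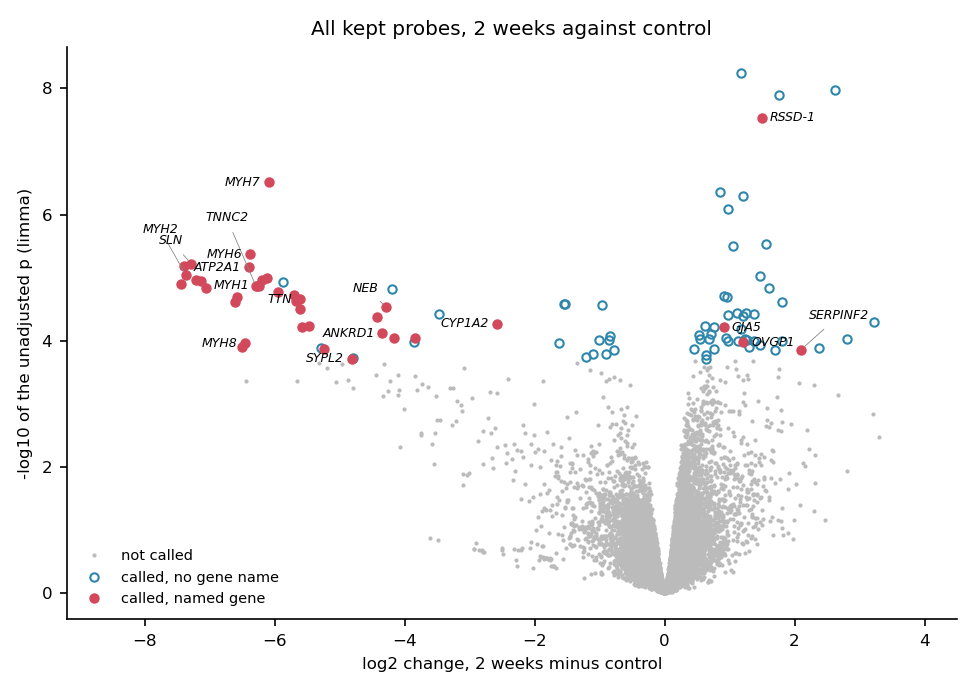
Log2 change (2 weeks minus control, horizontal axis) against -log10 of the unadjusted limma p (vertical axis) for the 24291 kept probes, with the 97 called probes as circles and the first probe of each called named gene labelled. Named falls lie far to the left, down to -7.43, and open circles without a gene name make up 42 of the 46 called rises on the right. Of the kept probes, 1843 have a name.

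Named genes are each given by their kept probe of the highest mean. Of 662 named genes measured, 11 (1.66%) were called, 8 lower (1.21%) and 3 higher (0.453%). The 4 control and 4 2-week arrays did not overlap for 55 of them (8.31%), 31 higher (4.68%) and 24 lower (3.63%) at 2 weeks. Of all kept probes 1404 (5.78%) did not overlap, 1046 higher (4.31%) and 358 lower (1.47%). Over all kept probes 41.8% lay below control and the median change was 0.04.

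Transcripts of skeletal muscle filaments were lower at 2 weeks, and they made up 7 of the 8 named genes called lower. Of 20 filament genes on the array, 17 were measured, 7 were called lower and 0 higher, and 11 did not overlap between the groups. Of the 17, 5 were above background on no 2-week array and were kept through control alone, so they could count only as falls. MYH1, MYH7, MYH8 and NEB of the called genes were among these 5. TNNC2, above background on all 8 arrays, was not called with a filter on all 8 arrays (limma adjusted p = 0.0555). All 17 lay below control, with a median log2 change of -3.84 beside 0.01 over all named genes. Where the 5 genes that were above background on no 2-week array were set at their bound, the median was -3.54, and it was also -3.54 over the 7 genes well above background on all 8 arrays. The list and its members were known from earlier results of these data, so these counts describe the arrays and are no independent evidence.

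The control arrays differed among themselves in this group more than the 2-week arrays did. The median level of the 17 genes was 2.16, 4.05, -0.71 and -1.44 on control replicates 1 to 4 and -3.72, -3.00, -3.64 and -2.60 on 2-week replicates 1 to 4. Control replicates 1 and 2 were thus high, replicates 3 and 4 lay between them and the 2-week arrays, and the groups did not overlap. Without control replicates 1 and 2 the median change was -1.58 and 15 of the 17 genes lay below control. In whole tissue, fewer cells of a type and less RNA per cell cannot be told apart, which holds for each gene group here.

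**Figure D2:**
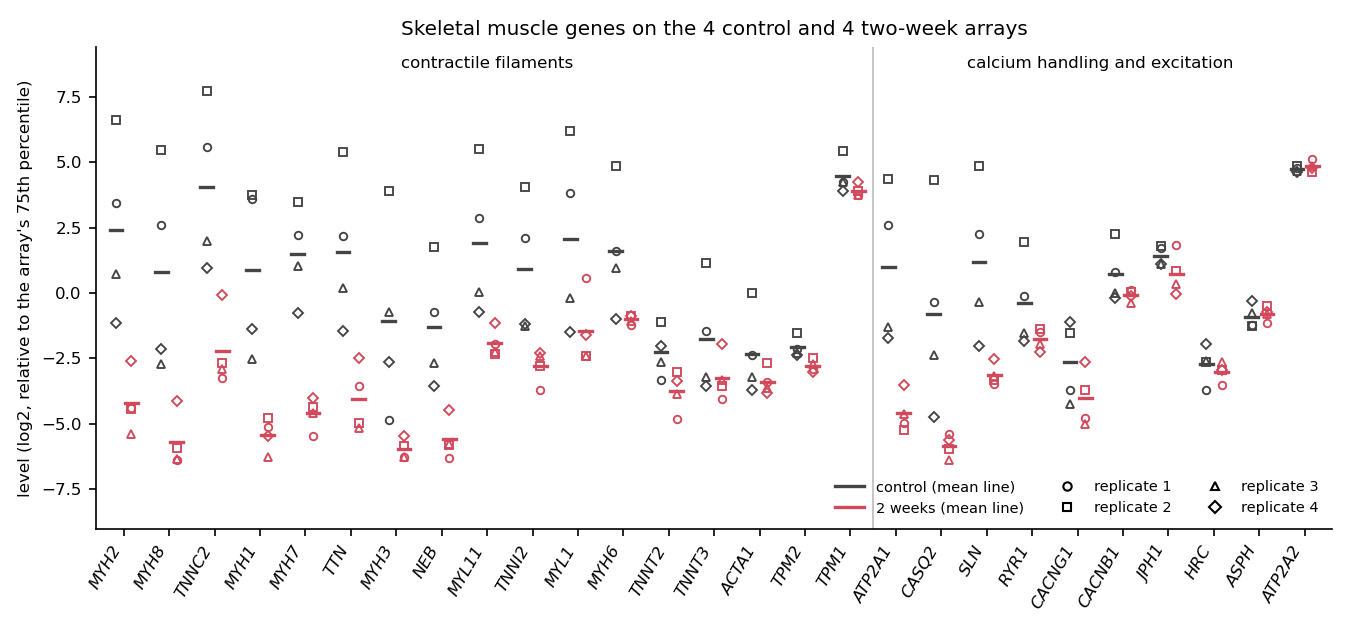
Level of each measured gene of muscle filaments (left) and muscle calcium handling (right) on the 4 control arrays (grey) and the 4 arrays of 2 weeks (red), in log2 units relative to the array's 75th percentile, with a line at each group's mean and a symbol for each replicate. Control replicate 2 (square) is the highest control value of every filament gene, and the groups lie close together for TPM1 and ATP2A2.

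Myosin heavy chains, the motor proteins of the thick filament, made up 4 of the 7 filament genes called lower. MYH2, the chain of fast oxidative fibres, stood at 3.43, 6.62, 0.73 and -1.16 on the control arrays and at -4.38, -4.42, -5.39 and -2.60 at 2 weeks. The groups did not overlap, with control replicate 4 nearest to the 2-week arrays. The fitted fall was 6.60 on the log2 scale (SE 1.16, limma adjusted p = 0.0161), and since 1 of 4 arrays at 2 weeks was well above background it is a fitted value. Without control replicates 1 and 2 the change was -3.98. Each of the 6 MYH2 probes was called, at -7.43 to -6.60.

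MYH7, the slow fibre chain, was at 2.21, 3.47, 1.05 and -0.77 in control and at -5.45, -4.35, -4.60 and -4.00 at 2 weeks, where no array was well above background. It was at least 38.8-fold lower (adjusted p = 0.00149), or at least 15.2-fold without control replicates 1 and 2. MYH1, the chain of fast glycolytic fibres, had control values of 3.61, 3.75, -2.52 and -1.37 and 2-week values of -5.12, -4.78, -6.27 and -5.46. Replicates 1 and 2 of control stood far above replicates 3 and 4, and all 4 of them above every 2-week array. MYH1 was at least 25.2-fold lower (adjusted p = 0.0129), and at least 3.58-fold without control replicates 1 and 2. MYH8, the perinatal chain, was at 2.59, 5.46, -2.70 and -2.14 against -6.39, -5.92, -6.36 and -4.12, at least 24-fold lower (adjusted p = 0.0375) or 2.57-fold without those 2 arrays. MYH3, the embryonic chain, also did not overlap (-4.87, 3.88, -0.71 and -2.63 against -6.25, -5.85, -6.27 and -5.46) but was not called (adjusted p = 0.0763).

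The heavy chain genes are close copies, and their probes show how much sequence they share. The MYH2, MYH1 and MYH6 probes below, 60 bases each, overlap on the same stretch of the coding sequence, as does a myosin probe whose isoform the files do not settle. They are printed 5′ to 3′ as the scanner files give them, with capitals at bases that differ from the MYH2 probe where the probes overlap.

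MYH2: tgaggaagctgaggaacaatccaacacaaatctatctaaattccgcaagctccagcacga

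MYH1: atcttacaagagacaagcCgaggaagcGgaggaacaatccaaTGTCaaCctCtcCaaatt

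myosin, isoform not settled: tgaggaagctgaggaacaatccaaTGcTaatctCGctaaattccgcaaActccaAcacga

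MYH6: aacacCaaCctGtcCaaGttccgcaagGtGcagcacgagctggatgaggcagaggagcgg

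The MYH1 probe shared 33 of its 42 overlapping bases with the MYH2 probe, the unsettled isoform 53 of 60 and the MYH6 probe 31 of 38. Fitted log2 changes on this stretch were -6.60 for MYH2, -5.24 for MYH1 (limma adjusted p = 0.0375), -5.65 for the unsettled isoform (adjusted p = 0.0768) and -6.38 for the MYH6 probe (adjusted p = 0.00945). This MYH1 probe and the unsettled isoform were well above background on no 2-week array. They were at least 8.99-fold and 16.1-fold lower, or 1.17-fold and 1.58-fold without control replicates 1 and 2. MYH6, the alpha chain of heart and of some jaw muscle fibres, had 6 other kept probes, none of them called, at -4.11 to -1.05. Its brightest probe stood at 1.62, 4.87 and 0.95 on control replicates 1 to 3 and from -1.21 to -0.87 at 2 weeks, a range that also held control replicate 4, with a log2 change of -2.61 (SE 0.74, adjusted p = 0.204). How far a probe also reads the transcript of a neighbouring isoform was not tested, so the values of single isoforms are uncertain.

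Light chains and thin filament genes lay below control as well, with 1 of them called. TNNC2, troponin C of fast fibres, which binds calcium, was well above background on all 8 arrays. Its level was 5.57, 7.73, 1.98 and 0.96 in control and -3.26, -2.68, -2.91 and -0.06 at 2 weeks, a fall of 6.29 on the log2 scale (SE 1.05, adjusted p = 0.0129), or a change of -3.70 without control replicates 1 and 2. Replicate 4 was the lowest of control and the highest of 2 weeks. MYL11, a regulatory light chain of fast fibres, was at 2.87, 5.50, 0.03 and -0.71 against -1.93, -2.32, -2.27 and -1.15, and TNNI2, the inhibitory troponin of fast fibres, at 2.12, 4.05, -1.26 and -1.19 against -3.72, -2.79, -2.42 and -2.28. Neither overlapped and neither was called (-3.84 and -3.73, adjusted p = 0.0717 and 0.0822). MYL1, an essential light chain, differed by -3.54, but 2-week replicate 1 at 0.59 lay above control replicates 3 and 4 (-0.20 and -1.50).

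Other members had smaller differences, none of them called. TPM1, a tropomyosin of many cell types, was at 4.25, 5.43, 4.24 and 3.89 against 3.74, 3.89, 3.75 and 4.26 (-0.54, adjusted p = 0.687), and TPM2 did not overlap at a log2 change of -0.70 (adjusted p = 0.626). TNNT2, TNNT3 and ACTA1, troponin T subunits and skeletal actin, had log2 changes of -1.50, -1.46 and -1.07 with overlapping arrays and adjusted p of 0.597 to 0.79. The only kept ACTA1 probe is described as a transcript of a liver library and took its name from a gene number, so its name is less certain. Without control replicates 1 and 2, TNNT3 and ACTA1 lay at 0.16 and 0.06, on the other side of control.

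Both giant filament proteins were lower. TTN, titin, which spans the sarcomere from end to middle, was at 2.16, 5.38, 0.19 and -1.44 in control and at -3.57, -4.96, -5.14 and -2.48 at 2 weeks. The groups did not overlap, the fitted fall was 5.61 (SE 0.98, adjusted p = 0.0157) with 2 of 4 arrays at 2 weeks above background, and the change was -3.41 without control replicates 1 and 2. Of its 7 kept probes, at -5.61 to -3.21, 3 were called. NEB, nebulin, which lies along the thin filament, was at -0.72, 1.74, -2.69 and -3.56 against -6.30, -5.82, -5.78 and -4.47. It was at least 5.56-fold lower (adjusted p = 0.0172), or 1.58-fold without control replicates 1 and 2, and 2 of its 5 probes were called.

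Calcium handling genes were mixed. Of 16 on the array 10 were measured, 1 was called lower, 3 did not overlap, 8 lay below control and the median log2 change was -1.10. Of the 10, 2 were above background on no 2-week array and were kept through control alone. Over the 6 members well above background on all 8 arrays the median was -0.48. ATP2A1, the calcium pump of fast fibres, was at 2.61, 4.36, -1.29 and -1.73 in control and at -4.98, -5.23, -4.63 and -3.51 at 2 weeks, with no overlap and no 2-week array above background. It was at least 27.3-fold lower (adjusted p = 0.0264), at least 4.84-fold without control replicates 1 and 2, and 9 of its 9 probes were called at -6.40 to -5.58. The files describe this record as ATP2A3, and its RefSeq accession now carries the symbol ATP2A1.

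SLN, sarcolipin, the small inhibitor of that pump, was at 2.25, 4.87, -0.35 and -2.02 against -3.48, -3.32, -3.19 and -2.53. Its brightest probe did not overlap and was not called (-4.32, adjusted p = 0.055), while 3 of its 5 probes were called and all 5 had the same sign, at -7.40 to -4.32. CASQ2, a calcium store protein, stood at -0.33, 4.30, -2.38 and -4.73 against -5.37, -5.96, -6.40 and -5.63 and was at least 7.99-fold lower without being called (adjusted p = 0.0778), a bound that was 1.17-fold without control replicates 1 and 2. By contrast ATP2A2, the pump of slow muscle, heart and many other cells, was at 4.78, 4.87, 4.68 and 4.64 against 5.12, 4.64, 4.87 and 4.77, a difference of 0.11 (SE 0.11, adjusted p = 0.91).

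The remaining members were not called. RYR1, the calcium release channel, and CACNG1 and CACNB1, subunits of the voltage sensor, had log2 changes of -1.39, -1.39 and -0.81 with overlapping arrays. JPH1, which couples the calcium store to the surface membrane, was at -0.69 with probes from -1.16 to 0.66. HRC, a calcium-binding store protein, and ASPH, whose locus also encodes a store protein, were at -0.27 and 0.11. Of these, CACNB1 had 0.00 and ASPH -0.24 without control replicates 1 and 2.

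Muscle metabolism and regulation genes had a median log2 change of -1.16 over 8 measured of 10, with 0 called, 0 not overlapping and 7 below control. Without control replicates 1 and 2, 4 of the 8 lay below control. CKM, the muscle creatine kinase that buffers ATP, was at 1.20, 4.38, -0.77 and -3.20 against -2.67, -3.39, -4.79 and -1.86, a difference of -3.58 (SE 1.09, adjusted p = 0.277) with overlapping arrays. SLC2A4, the insulin-responsive glucose transporter, differed by -3.75 (adjusted p = 0.22) over 3 arrays at 2 weeks, since the spot of replicate 4 was marked an outlier by the scanner software and left out. ANKRD1, a stretch-responsive nuclear protein of muscle, and ENO3, the muscle enolase, had log2 changes of -3.11 and -1.15 by their brightest probes (adjusted p = 0.425 and 0.789). For ANKRD1 another probe was called, well above background on no 2-week array and at least 4.92-fold lower (limma adjusted p = 0.0321). Without control replicates 1 and 2 that bound was 1.56-fold. Also called was 1 probe of SYPL2, a triad membrane protein, at least 6.58-fold lower (adjusted p = 0.0487). It was well above background on 3 of the 8 arrays, none of them at 2 weeks. Its bound was 1.11-fold without control replicates 1 and 2. The brightest SYPL2 probe lay at -4.01 (adjusted p = 0.144).

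A probe described in the files as mitochondrial creatine kinase, which carries no gene symbol here and was picked out after its value was seen, ran with the filament genes. It is printed because it was among the 2 unnamed falls of lowest p.

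mitochondrial creatine kinase: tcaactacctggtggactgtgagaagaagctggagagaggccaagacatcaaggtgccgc

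Its level was 0.99, 3.72, -1.49 and -3.31 in control and -6.38, -5.26, -6.34 and -5.56 at 2 weeks. No array overlapped, and the probe was at least 13.6-fold lower (adjusted p = 0.0129), or 2.61-fold without control replicates 1 and 2.

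The called muscle genes rested on few arrays to different degrees. MYH7 kept its call without any 1 of the 8 arrays and without control replicates 1 and 2 together (-4.74, adjusted p = 0.0307). The call of MYH1 depended on control replicate 1 (adjusted p = 0.0605 without it) and 2-week replicate 3 (0.0539) and was kept without control replicates 1 and 2 (-3.46, adjusted p = 0.0312). TNNC2, MYH2 and TTN were each lost without control replicate 1 (adjusted p = 0.0653, 0.0779 and 0.0741), 2-week replicate 2 (0.051, 0.0649 and 0.0674) or 2-week replicate 3 (0.0532, 0.0691 and 0.0667), and NEB also without 2-week replicate 1 (0.0521), with its highest value, 0.0805, without control replicate 1. ATP2A1 and MYH8 each lost their call when replicate 1, 2 or 3 of 2 weeks, or 1 or 2 of control, was omitted (limma adjusted p up to 0.12 and 0.161). Without control replicates 1 and 2 together, the other 6 lost their calls, TNNC2 at -3.70 (adjusted p = 0.05), NEB at -2.46 (0.05), TTN at -3.41 (0.0617), MYH2 at -3.98 (0.102), ATP2A1 at -3.08 (0.288) and MYH8 at -3.27 (0.339). In each of these fits the sign was negative, as it had to be, since the groups did not overlap for any of these genes. The reported fit shares 1 spread per probe over all 5 groups, also where the groups differ in spread. For MYH1 the SD was 3.28 in control and 0.64, 0.59, 1.07 and 0.08 at 2, 1, 4 and 8 weeks. The less variable operated groups thus make its SE and p smaller than the control spread alone would give. A limma fit to the 8 arrays alone leaves out 1, 4 and 8 weeks and has 6 rather than 15 residual degrees of freedom. It gave the same log2 changes and adjusted p of 0.0914 for MYH7 and 0.235 to 0.321 for the other 7.

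Markers of other cell types were compared as whole lists, and 0 of their measured genes were called. Summed levels of 7 neutrophil markers ran from 2.99 to 6.08 in control and from 0.93 to 5.85 at 2 weeks, with a median log2 change of -1.40. Those of 4 macrophage markers ran from 2.41 to 3.12 and from 1.39 to 2.64. Those of 4 erythroid markers, 3 of them measured, ran from 8.21 to 9.20 and from 6.11 to 9.69. Ranges overlapped for osteoclast markers (9.38 to 9.81 against 9.24 to 9.92), smooth muscle markers (5.79 to 6.09 against 5.71 to 6.27), endothelial markers (1.97 to 2.12 against 1.96 to 2.73) and synovial lining markers (3.43 to 3.87 against 2.93 to 3.72). Of the synovial lining sums, those of 2-week replicates 2, 3 and 4 (2.93, 3.19 and 3.33) lay below every control array. The lymphocyte markers CD3E, CD4, RAG2 and KCNA3, the endothelial VWF and SELP, the adipocyte ADIPOQ, the neural NEFH and TH and the epithelial KRT10, KRT12 and CASP14 were well above background on none of the 8 arrays. The part of any cell type in the gene groups below was not tested.

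Of 3 measured hyaline cartilage genes, 6 of hypertrophy and bone and 11 of fibrous matrix, 0 were called and 0 separated the arrays. COL2A1, ACAN and CNMD had log2 changes of -0.44, -0.38 and -0.35. ACAN, aggrecan, was at -1.97, -2.46, -2.70 and -1.96 against -3.00, -2.40, -2.33 and -2.89 (adjusted p = 0.911). CNMD, chondromodulin, an inhibitor of vessel growth, ranged in control from 0.85 in replicate 1 to 3.56 in replicate 4 and at 2 weeks from 0.86 to 2.58, and without control replicate 4 its difference was 0.13. The 4 control arrays thus varied more in CNMD than the groups differed.

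Of the bone and hypertrophy list, SPP1, osteopontin, was at 8.24, 8.10, 8.61 and 8.62 against 8.15, 8.92, 8.80 and 8.93 (0.31, adjusted p = 0.826). IHH, the hedgehog ligand of prehypertrophic chondrocytes, differed by 0.41 (SE 0.54, adjusted p = 0.946). In the fibrous matrix, FN1, fibronectin, was at 6.71, 6.16, 6.63 and 6.01 against 5.93, 6.14, 5.60 and 5.63 (-0.55, adjusted p = 0.569), with 14 of 14 probes below control. LUM, the collagen-binding proteoglycan lumican, differed by -0.56, COL5A1, a collagen that nucleates fibrils, by 0.32 and VTN, vitronectin, by 0.74 (adjusted p = 0.757, 0.696 and 0.845). In each of these genes at least 1 control array lay among the 2-week arrays.

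Of the cytokine, inflammatory, protease and hypoxia lists 0 measured members were called. Their counts below control stand beside 49.5% of all named genes. Among cytokines, chemokines and their receptors 12 of 13 lay below control (median log2 change -0.39), and 9 of 13 with normexp background correction. CCL2, a monocyte chemoattractant, was the 1 member that did not overlap, at -0.68, 0.18, -0.74 and -0.77 against -0.82, -1.65, -2.15 and -1.20 (-0.95, adjusted p = 0.587), with 4 of 4 probes below control. IL1RN, the natural antagonist of the interleukin-1 receptor, was at 3.04, 3.33, 3.75 and 2.95 against 1.73, 2.03, 1.93 and 3.39 (adjusted p = 0.279). Replicates 1 to 3 at 2 weeks lay below every control array and replicate 4 did not, and without that array IL1RN was called (-1.38, adjusted p = 0.0154).

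CCL4, a chemokine of macrophages and T cells, and IL15, a cytokine of lymphocyte survival, had log2 changes of -0.95 and -0.47 (adjusted p = 0.611 and 0.606). Of 15 inflammatory mediators, 10 lay below control (median -0.32). HMOX1, which degrades haem, differed by -1.22 and PTGS2, the inducible prostaglandin synthase, by -0.83 (adjusted p = 0.455 and 0.609). SAA3, an acute phase protein, was at 4.63, 3.48, 4.98 and 1.86 against 2.54, 2.84, 1.63 and 1.29, and its control replicate 4 lay inside the 2-week range. TLR4, the endotoxin receptor, differed by -0.46 (adjusted p = 0.722).

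Of 20 proteases and inhibitors, 15 lay below control (median -0.11). MMP12, the macrophage elastase, was at 0.45, -1.14, 0.09 and -2.57 against -1.64, -4.16, -4.02 and -1.70 (-2.09, SE 0.91, adjusted p = 0.606). PLAU, urokinase, MMP3, stromelysin, and TIMP2, a metalloprotease inhibitor, differed by -0.63, -0.54 and 0.32 (adjusted p = 0.456, 0.663 and 0.597). Hypoxia and glycolysis genes lay below control in 8 of 9 (median -0.26), and in 5 of 9 without control replicates 1 and 2. HIF1A, the hypoxia-stabilised transcription factor, was at 1.58, 1.56, 1.68 and 1.02 against 0.64, 1.23, 0.87 and 0.57 (-0.63, adjusted p = 0.487). SLC2A1, the basal glucose transporter, differed by -0.88, LDHA, lactate dehydrogenase, by -0.56 and ALDOA, the aldolase most abundant in muscle, by -0.45 (adjusted p = 0.67, 0.782 and 0.572).

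**Figure D3:**
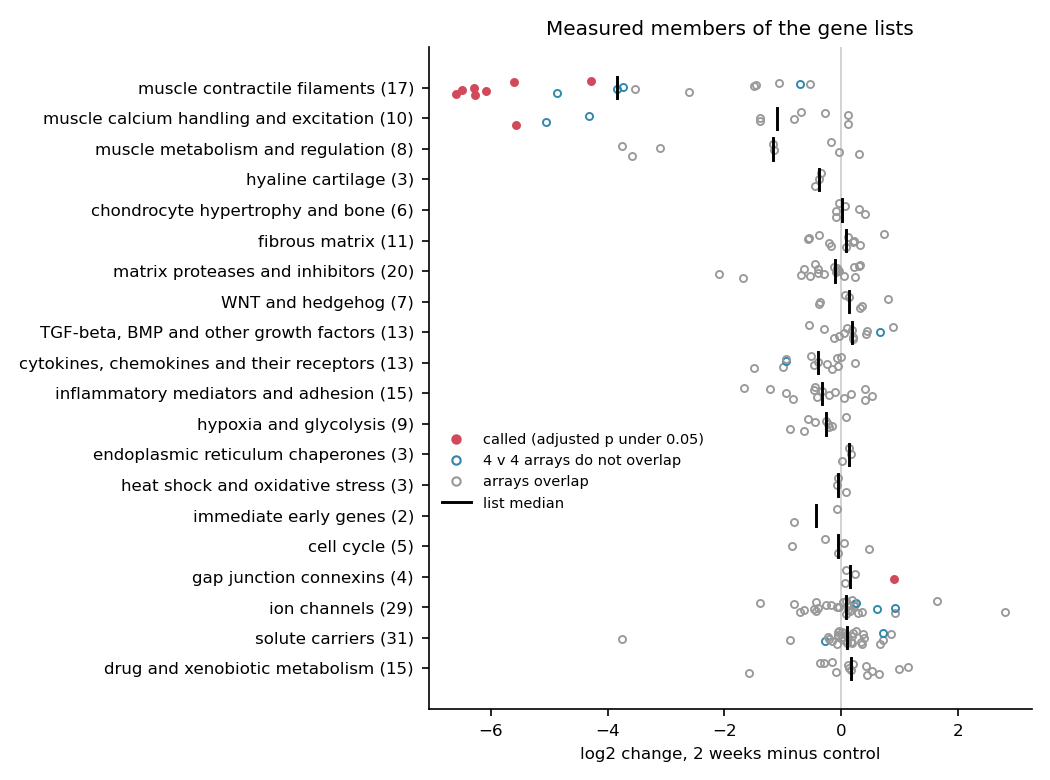
Log2 change (2 weeks minus control) of each measured member of the gene lists, with the number measured in brackets, the list median as a bar, called genes filled and genes whose 4 and 4 arrays did not overlap in blue. The filament list has its median at -3.84, and the other lists outside muscle have medians between -0.44 and 0.18.

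Growth factor and WNT genes held 1 member that separated the arrays and 0 that were called. BMP7, a bone morphogenetic protein, was at 0.62, 0.68, 0.93 and 0.69 in control and at 1.17, 1.37, 1.46 and 1.56 at 2 weeks. All 2-week arrays were higher, 5 of 5 probes agreed in sign (0.65 to 0.70), and the difference of 0.66 (SE 0.30) had an adjusted p of 0.634. Its SD was 0.14 and 0.17 in the groups compared and 0.67 and 0.68 at 8 and 4 weeks, which enter the SE. DKK1, a secreted WNT antagonist, was at 2.04, 2.41, 2.74 and 2.30 against 3.33, 2.76, 2.65 and 3.95 (0.80, adjusted p = 0.565), with control replicate 3 above 2-week replicate 3. BMP4 and EGFR, the epidermal growth factor receptor, differed by 0.42 and 0.89 (adjusted p = 0.764 and 0.837). CCND1, a cyclin of cell cycle entry, differed by 0.48 and JUN, an immediate early transcription factor, by -0.80 (adjusted p = 0.789 and 0.712).

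Of the 3 named genes called higher, GJA5 is the 1 that was well above background throughout. GJA5 encodes a connexin, a gap junction protein of arteries and of the heart's conduction system.

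GJA5: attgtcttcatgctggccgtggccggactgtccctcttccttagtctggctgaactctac

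By this single probe, the 1 that carries the finding, its level was -2.23, -1.76, -1.98 and -1.81 in control and -1.40, -0.90, -1.03 and -0.81 at 2 weeks. Every array at 2 weeks lay above every control array, and the rise was 0.91 (SE 0.17, adjusted p = 0.0264). Omitting replicate 2, 3 or 4 of 2 weeks, or 1 or 3 of control, ended the call (limma adjusted p up to 0.12), with log2 changes of 0.82 to 1.03 over these and the other single omissions and the joint omission of control replicates 1 and 2. All 4 connexins measured lay above control, GJB1, a connexin of liver and nerve, by 0.23 (adjusted p = 0.922), but with normexp background correction, or without control replicates 1 and 2, 3 of the 4 did.

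OVGP1, a mucin-like glycoprotein first described in the oviduct, was at -4.31, -3.92, -3.92 and -4.07 in control, where 1 of 4 arrays was above background, and at -3.33, -3.00, -2.51 and -2.52 at 2 weeks. It rose by a fitted 1.22 (SE 0.24, adjusted p = 0.0334), and the call was lost without any 1 array other than 2-week replicate 1 (limma adjusted p up to 0.142). RSSD-1, annotated as a sperm membrane protein, was at -5.02, -5.49, -5.49 and -5.77 against -4.04, -3.63, -3.83 and -4.29. It was well above background on 3 of 4 arrays at 2 weeks and on 0 in control (adjusted p = 1.78e-04), and no fold is given since its bound was under 1. That call held without any 1 array.

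Other named genes lay higher on all 4 arrays at 2 weeks without being called. MYOCD, a coactivator of smooth and heart muscle genes, was at -4.28, -4.42, -5.05 and -5.59 against -3.73, -3.68, -3.72 and -1.51, at least 1.58-fold higher (adjusted p = 0.365), with 2-week replicate 4 alone far up. INS, insulin, and PPP1R17, a phosphatase inhibitor, had fitted differences of 1.46 and 1.14 (adjusted p = 0.342 and 0.147). POU5F1, a pluripotency transcription factor, was at -3.00, -2.94, -3.18 and -2.53 against -2.22, -1.81, -2.09 and -2.22 (0.83, adjusted p = 0.123). S1PR2, a receptor for sphingosine 1-phosphate, differed by 0.66 and SLC6A12, a betaine and GABA transporter, by 0.71 (adjusted p = 0.568 and 0.512).

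**Figure D4:**
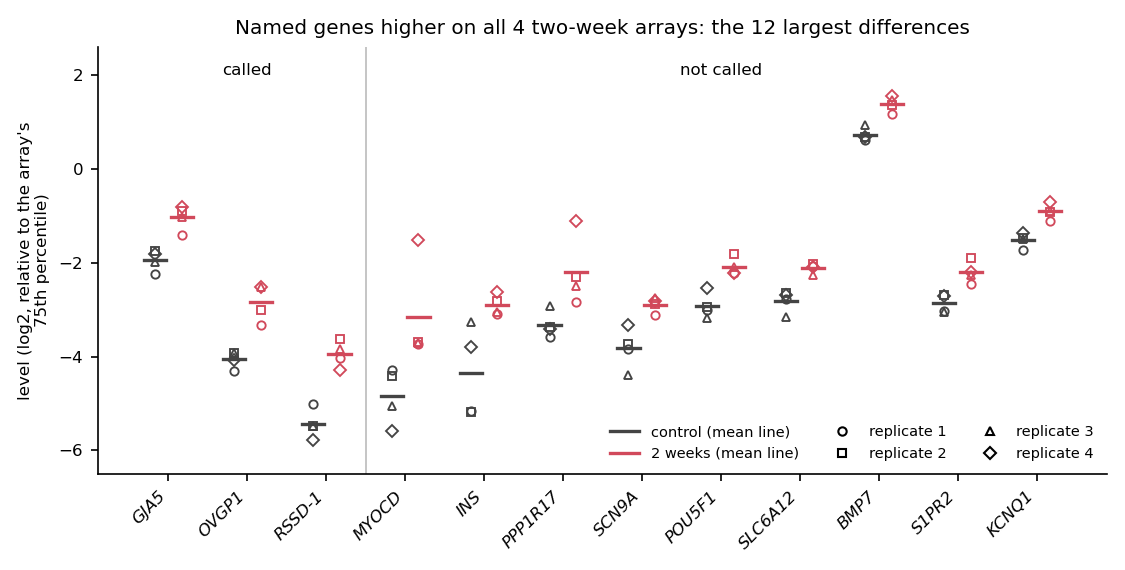
Level of the named genes with the largest differences among those whose 4 arrays at 2 weeks (red) all lay above the 4 control arrays (grey), in log2 units relative to the array's 75th percentile, with a line at each group's mean. The 3 called genes are on the left, and the gap between the groups is small beside the spread of MYOCD, whose replicate 4 at 2 weeks stands at -1.51.

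Ion channel and transporter genes were read beside all 662 named genes, of which 8.31% did not overlap and 334 lay above control. Of 29 ion channel genes 0 were called, 3 did not overlap and were higher, and 17 lay above control (median 0.09). KCNQ1, a potassium channel that repolarises the heart and serves epithelia, was at -1.73, -1.48, -1.50 and -1.37 against -1.10, -0.91, -0.90 and -0.70, a difference of 0.61 (SE 0.22, adjusted p = 0.428). SCN9A, a sodium channel of pain-sensing neurons, was at -3.83, -3.73, -4.40 and -3.32 against -3.12, -2.88, -2.75 and -2.82 (0.93, adjusted p = 0.129), with 1 of 4 control arrays above background. KCNE2, a potassium channel subunit, had the largest positive difference of any named gene, a fitted 2.80, on values of -6.20, -6.19, -5.88 and -5.60 against -1.20, -2.95, -6.22 and -2.29. Its replicate 3 at 2 weeks was as low as the control arrays, and the gene was at least 1.57-fold higher without being called (adjusted p = 0.415). TRPC1, a cation channel, differed by 1.65 (adjusted p = 0.306) and was called without control replicate 3 (2.33, adjusted p = 0.00845).

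Of 31 solute carriers 0 were called, 2 did not overlap and 20 lay above control (median 0.10). SLC12A4, a potassium chloride cotransporter, was at 1.85, 1.82, 1.80 and 2.32 against 2.15, 2.42, 2.48 and 2.20 (0.36, adjusted p = 0.33), and it was called without control replicate 4 (0.49, adjusted p = 0.0325). Of 15 genes of drug and xenobiotic metabolism 0 were called and 10 lay above control (median 0.16), and 6 without control replicates 1 and 2. GSTM2, a glutathione transferase, was at 3.08, 5.08, 4.62 and 4.43 against 5.70, 5.50, 5.66 and 4.90, with 5 of 5 probes above control (1.14, adjusted p = 0.471). CYP4B1 and CYP2A11, monooxygenases, differed by 0.52 and -1.58 (adjusted p = 0.289 and 0.541). The oxidative stress gene SOD2, a mitochondrial superoxide dismutase, differed by -0.08 and the chaperone CALR, calreticulin, by 0.17 (adjusted p = 0.967 and 0.827).

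Probes that lie on nearly the same sequence were compared without use of gene names. They read the same RNA on the same arrays, so agreement between them is no test of a difference between the groups. This comparison of probes sharing at least 50 bases was chosen after the data had been seen. Of the 51 probes called lower, 23 had such a kept neighbour, and 18 of them had a neighbour called the same way. Their median log2 changes were -5.67 for the called probes and -5.82 for the neighbours. Of the 46 called higher, 7 had a neighbour and 0 had one called. There the medians were 1.27 and 0.56, and 2 of the 7 neighbour medians were below 0. The falls were larger than the rises, so the counts of the higher and lower probes are not like for like. The 18 probes are not independent, since 9 read ATP2A1, 5 MYH2, 2 NEB and 2 an unnamed transcript, 4 separate stretches in all. Over all kept probes, 7011 of the 7971 with a neighbour had a neighbour median of their own sign, and 53 had one called in their own direction.

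The pairs below show the strongest disagreements and are printed so that the overlap can be seen. Capitals mark the bases of each CYP1A2 probe that the other does not hold. CYP1A2 is a cytochrome P450 induced by aromatic hydrocarbons.

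CYP1A2, called: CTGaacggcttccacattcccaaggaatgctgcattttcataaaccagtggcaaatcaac

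CYP1A2, neighbour: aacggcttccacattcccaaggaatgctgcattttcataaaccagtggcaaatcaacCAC

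The first CYP1A2 probe was at -3.44, -3.26, -2.38 and -3.57 in control and at -6.33, -5.88, -6.27 and -4.49 at 2 weeks, where it was at least 1.54-fold lower (adjusted p = 0.0257). Its neighbour, with 57 bases in common, was at -4.99, -3.90, -4.36 and -4.07 against -3.48, -2.86, -3.11 and -2.37, a difference of 1.37 (adjusted p = 0.457). Both of these probes separated the groups, in opposite directions. The remaining kept CYP1A2 probes, none of them called, differed by 0.65, 0.87 and a fitted -1.01. The last was well above background on no 2-week array and at least 1.18-fold lower. No direction is therefore given for CYP1A2. SERPINF2, antiplasmin, which is not among these pairs, also had 1 called probe, at least 1.08-fold higher (limma adjusted p = 0.0375). That probe was well above background on 0 control arrays and on 3 of 4 arrays at 2 weeks. The 5 other SERPINF2 probes had log2 changes of 0.24 to 0.47 and were not called.

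The other pair has no gene name here. Its probes also share 57 of 60 bases, and both were called, with opposite signs.

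probe A_04_P040606: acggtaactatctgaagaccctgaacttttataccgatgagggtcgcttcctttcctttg

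its neighbour: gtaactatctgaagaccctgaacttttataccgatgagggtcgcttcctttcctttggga

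Levels of A_04_P040606 were -6.06, -4.61, -4.91 and -5.78 in control, where it was above background on 0 arrays, and -3.00, -2.90, -2.62 and -2.33 at 2 weeks, at least 2.15-fold higher (adjusted p = 1.02e-04). The neighbour stood at -2.73, -2.16, -2.38 and -2.50 against -3.50, -3.79, -3.25 and -3.27 and had a fitted fall of 1.01 (adjusted p = 0.033). Among unnamed probes, A_04_P009257, of a cornea transcript, rose by a fitted 1.18 (SE 0.11, adjusted p = 1.02e-04) from -4.20, -4.02, -3.82 and -3.90 to -3.02, -2.74, -2.80 and -2.68. A_04_P003686 was at least 4.38-fold lower (adjusted p = 0.0129), or 1.66-fold without control replicates 1 and 2.

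The called probes were followed on the arrays of 1, 4 and 8 weeks, which were scanned on another day, so that day and time cannot be told apart. Over all kept probes, limma called 8.36%, 1.86% and 6.57% between 2 weeks and 1, 4 and 8 weeks, and of named genes 10.4%, 2.57% and 6.19%. Of the 51 probes called lower, 4 were also lower at 2 weeks than at 1 week, 4 than at 4 weeks and 4 than at 8 weeks, and 0 were higher, with median differences of -0.95, 0.29 and 0.08. Of the 46 called higher, 19, 14 and 17 were lower at 2 weeks than at 1, 4 and 8 weeks, and 7, 2 and 4 were higher. For the named genes, MYH2 had means of -2.80 ± 1.23, -4.60 ± 1.08 and -4.45 ± 0.21 at 1, 4 and 8 weeks beside -4.20 ± 1.16 at 2 weeks (SD, n = 4 each). TNNC2 had -1.31 ± 0.75, -3.05 ± 0.30 and -2.93 ± 0.25 beside -2.23 ± 1.47 (SD, n = 4 each), and neither differed from 2 weeks by the test (adjusted p of 0.481 to 0.937 for MYH2 and 0.623 to 0.77 for TNNC2). GJA5 was at -0.49 ± 0.39, -0.64 ± 0.16 and -0.65 ± 0.12 beside -1.03 ± 0.26 (SD, n = 4 each), again not called (adjusted p = 0.0591, 0.25 and 0.207).

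The number of calls depended on the setting. It was 3 in a fit to the 8 arrays alone and 0 with normexp background correction, where 2104 and 571 probes had an unadjusted p under 0.05, and 335 with array weights. Leaving out 1 array gave 11 (without 2-week replicate 3) to 177 (without control replicate 4) calls, and leaving out control replicates 1 and 2 gave 18, of which 13 were among the 97. The 11 called genes kept their direction in each of 20 alternatives in which they could be fitted. For omitted arrays this had to be so, since none of the 11 overlapped between the groups. Other filters and variance models leave the log2 change as it was. The kept direction is therefore no sign of stability.

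**Figure D5:**
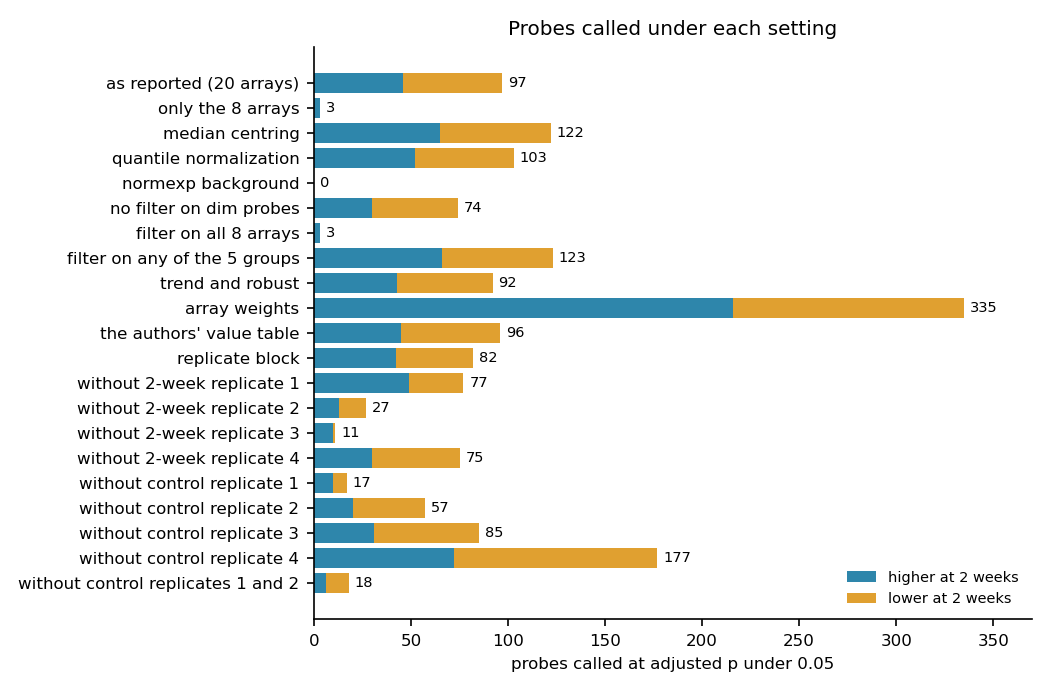
Number of probes called (adjusted p under 0.05) in each setting, split into higher (blue) and lower (orange) at 2 weeks, with the total beside each bar. The count as reported is 97, and the settings range from 0 with normexp background correction to 335 with array weights.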

How the data were processed

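One-colour arrays of rabbit condylar cartilage, 5 groups of 4, were available, and the 8 of control and 2 weeks were compared. The authors read the scanned arrays with Agilent Feature Extraction 10.7.1.1, per the submitters' processing notes, and deposited the intensity of each spot, which per the file headers is background-subtracted with low signals replaced by a small positive value. Their value table, also intensity, matched the scanner values for the 8 arrays compared.

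Intensities were put on the log2 scale, minus each array's 75th percentile. Outlier spots, 14 to 60 on each of the 8 arrays, were left out. limma 3.58.1 (R 4.3.3) fitted 5 group means over the 20 arrays, and Python 3.11.15 did the rest. P-values are two-sided. The fit was tested on simulated data with 1 spread per probe for all groups and no floor for dim signals. It recovered 68% of changes of 1 log2 unit and 93% of changes of 2, beside 50% and 89% with 8 arrays. False calls were 8 with all arrays and 12 with 8 arrays. The muscle genes differ from this setting in both respects, so these shares do not carry over to them. Where 1 group had a probe well above background on 0 arrays, the change is given as "at least". The brighter mean is then set against a dimmer mean in which each array enters with its lowest level well above background, or with the probe itself if that is brighter.

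Names came from the files and RefSeq's rabbit table and were found for 3165 probes (7.26%). No rabbit genome was used, so no coordinates are given. The naming rule takes all called genes, the 12 largest rises and falls that separated the arrays, up to 4 genes of lowest p per list, both muscle lists in full, and 2 unnamed probes per direction. Of the 101 genes it gives, 16 with small differences are left to the counts. Members, lists and tests were chosen with earlier results of these data known. No gene of the mitochondrial respiration list was found on the array by name. Replicate numbers were not used as pairs in the reported fit. Deviations of same-numbered arrays correlated at 0.412, -0.0718, 0.00271 and 0.176, and those of differently numbered arrays at -0.354 to 0.326. These values cannot settle whether the numbers pair samples. Alternatives were other scalings, background, filters, variance models, weights, the value table, a replicate block and omitted arrays.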

Additional observations from a re-analysis of the deposited data

Results flagged for a closer look

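Among the 85 genes followed, 170 groups of 4 arrays were examined for a single array far from the other 3, and 8 stood out, where chance gives about 1 in 20 groups. At 2 weeks, replicate 4 was high for MYOCD (-1.51, the nearest array at -3.68) and CCL4 (-0.45, nearest -1.20) and low for ENO3 (-3.75, nearest -2.85). Replicate 1 was low for SPP1 (8.15, nearest 8.80) and high for ALDOA (4.58, nearest 4.12), and replicate 3 was low for CALR (8.38, nearest 8.57). In control, replicate 2 was high for CCL2 (0.18, nearest -0.68) and replicate 4 for SLC12A4 (2.32, nearest 1.85).

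The change against control at 2 weeks differed from that at another time, by limma's test of the difference, in 20 of 255 gene and time pairs. Over all named genes the same test called 10.4%, 2.57% and 6.19% against 1, 4 and 8 weeks, so the count is near what named genes show in general. These differences cross scan days, so time and day cannot be told apart. Against 1 week, 2 weeks was higher for WNT3 (1.98), GSTM2 (1.49), KCNQ1 (1.19), GJB1 (1.09), SCN9A (1.05), POU5F1 (0.81) and SOD2 (0.71), and lower for JPH1 (-1.85), FRZB, a WNT antagonist of cartilage (-1.68), OVGP1 (-1.48), ACAN (-1.41) and RSSD-1 (-0.97). Against 4 weeks, it was lower for FRZB (-1.70) and OVGP1 (-1.07) and higher for CALR (0.52). Against 8 weeks, it was higher for TPM2 (1.12), KCNQ1 (0.77), SOD2 (0.64) and CALR (0.46) and lower for OVGP1 (-1.01).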

How the results depend on the processing

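In place of 97 probe calls there were 3 in a fit to the 8 arrays alone, 0 with normexp background and 3 with a filter on all 8 arrays. There were 335 with array weights, 18 without control replicates 1 and 2, and 11 to 177 without 1 array. Without 2-week replicates 2 and 3 and control replicates 1, 2 and 4 the counts were 27, 11, 17, 57 and 177. Of these, 27, 11, 14, 49 and 86 were among the 97. The 11 named genes became 0 with the 8 arrays, with normexp and with the filter on all 8 arrays, 28 with array weights, 4 without control replicates 1 and 2 (3 of them shared) and 2 to 24 without 1 array. The 55 named genes whose arrays did not overlap became 14 with normexp, 36 with the filter on all 8 arrays, 118 without control replicates 1 and 2 and 64 to 96 without 1 array, which fewer arrays favour. With median centring, quantile normalization, no filter, a filter over all groups, a trended variance or the value table, these counts stayed within 1.5 times. The median of the filament list was -4.74 to -2.69 without 1 array and -1.58 without control replicates 1 and 2. With the replicate block, 82 probes and 10 named genes were called (75 and 10 of them shared), and MYH8 lost its call (adjusted p = 0.0561).

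Signs turned for uncalled genes. Without control replicates 1 and 2, ENO3 was 0.48, TNNT3 0.16, ACTA1 0.06, CACNB1 0.00 (from below 0), GJB1 -0.03, IHH -0.15 and ASPH -0.24. Without 1 array, ASPH ranged from -0.01 (control replicate 1 or 2 omitted) to 0.30 and CNMD from -0.78 to 0.13 (control replicate 4 omitted). With normexp, ATP2A2 was -0.11, CALR -0.08 and HRC 0.10. CNMD was 0.06 with array weights. Of 1671 values of named genes, 1548 kept their direction and side of the threshold, 73 lost and 36 gained a call and 14 turned. The causes were not tested. Dim probes and 4 arrays a group limit all sizes.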
